A study of Mus musculus with 4 samples.

Results

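The peaks described here were found in both ChIP libraries but are absent from the authors' table of reproducible regions. They are the peaks of library 1 on chromosomes 1 to 19 that share at least 1 bp with a peak of library 2 and overlap no region of the table, and they are called unlisted peaks below. There were 10651 of them among 41453 library 1 peaks on these chromosomes (25.7%), and among 23436 library 1 peaks with an overlapping peak in library 2 (45.4%). The rest of library 1 fell into 12785 peaks that overlap a table region, called table peaks, and 18017 peaks found in library 1 only. Each of the 12925 table regions started and ended at the ends of library 1 peaks, and 58 of them spanned 2 such peaks. The cells were oligodendrocyte progenitors (OLP), taken from the cortex of C57BL/6 mice and kept dividing with bFGF (20 ng/ml) and PDGF-AA (10 ng/ml). All received CNTF, a cytokine, at 100 ng/ml for 15 min. Both ChIP libraries were made with an antibody against STAT3 phosphorylated at tyrosine 705. No untreated cells are among the samples, and the 2 input libraries were not analysed here. Lysates were combined before sonication and no label names separate cultures, so differences between the ChIP libraries may be technical. Positions are on GRCm38.

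CNTF binds a receptor complex that contains gp130, and JAK kinases bound to it phosphorylate STAT3. Phosphorylated STAT3 forms dimers that enter the nucleus and bind a palindromic DNA site, TTC and GAA separated by a short spacer, at enhancers and promoters. Peak callers list every place where fragments pile up beyond the local background, and the irreproducible discovery rate (IDR) then ranks the peaks of paired libraries and keeps those whose ranks hold in both. The table lists regions with an IDR of 0.05 or below. Unlisted peaks were thus chosen by overlap and by their place in a ranking of peak strength.

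The promoters below show the kinds of site that unlisted peaks covered. Each is a RefSeq promoter window (GRCm38.p6) from 250 bases before to 50 after a transcription start, printed in the direction of the gene. None of the first 5 windows is touched by a table peak. The first 3 belong to the unlisted peaks with the highest lower fold of the pair among those with their summit in a window that holds the strict STAT motif TTCCNGGAA, which is in capitals. They are Mapk14, which encodes the stress kinase p38 alpha (chr17:28692318-28692617, plus strand), Ankrd13b (chr11:77489993-77490292, minus strand) and Ddx56, an RNA helicase gene (chr11:6267680-6267979, minus strand).
Mapk14: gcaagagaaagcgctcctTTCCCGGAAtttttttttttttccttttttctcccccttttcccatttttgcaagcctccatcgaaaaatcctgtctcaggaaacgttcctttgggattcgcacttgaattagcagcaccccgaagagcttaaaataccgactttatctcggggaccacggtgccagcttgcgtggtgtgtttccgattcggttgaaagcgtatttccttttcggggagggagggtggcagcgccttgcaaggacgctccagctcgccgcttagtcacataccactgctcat
Ankrd13b: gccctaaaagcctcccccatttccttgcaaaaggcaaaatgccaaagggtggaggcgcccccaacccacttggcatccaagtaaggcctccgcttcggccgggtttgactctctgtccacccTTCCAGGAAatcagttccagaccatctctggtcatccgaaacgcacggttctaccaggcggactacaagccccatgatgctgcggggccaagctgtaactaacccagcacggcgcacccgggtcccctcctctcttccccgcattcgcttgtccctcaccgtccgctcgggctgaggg
Ddx56: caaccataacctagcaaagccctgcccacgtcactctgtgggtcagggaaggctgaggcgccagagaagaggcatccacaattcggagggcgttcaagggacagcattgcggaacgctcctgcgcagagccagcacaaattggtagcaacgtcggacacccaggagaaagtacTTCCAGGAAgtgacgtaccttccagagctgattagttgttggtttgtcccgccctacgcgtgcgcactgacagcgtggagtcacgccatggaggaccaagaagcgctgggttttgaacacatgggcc
The next 2 were chosen alike among windows that hold no TTCNNNGAA at all, with every CpG in capitals. They lie at 4930506C21Rik, which shares its promoter with the divergent gene Sft2d1 (chr17:8311069-8311368, minus strand), and at Sec23ip, which acts in the traffic of vesicles from the endoplasmic reticulum (chr7:128744620-128744919, plus strand).
4930506C21Rik: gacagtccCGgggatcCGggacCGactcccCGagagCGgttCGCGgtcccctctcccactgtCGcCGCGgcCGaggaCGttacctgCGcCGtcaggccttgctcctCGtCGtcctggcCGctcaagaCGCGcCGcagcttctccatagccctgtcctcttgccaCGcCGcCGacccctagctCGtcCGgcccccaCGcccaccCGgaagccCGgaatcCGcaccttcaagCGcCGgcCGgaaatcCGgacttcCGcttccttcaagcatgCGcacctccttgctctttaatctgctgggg
Sec23ip: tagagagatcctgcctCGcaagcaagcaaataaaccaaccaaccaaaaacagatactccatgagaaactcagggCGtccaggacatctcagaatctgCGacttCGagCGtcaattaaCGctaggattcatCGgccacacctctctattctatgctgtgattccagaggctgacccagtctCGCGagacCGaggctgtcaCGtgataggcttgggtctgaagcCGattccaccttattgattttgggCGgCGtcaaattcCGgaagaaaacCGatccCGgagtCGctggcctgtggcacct
The last window is from a table peak, for comparison. It is that of the ETS repressor gene Etv6 (chr6:134035450-134035749, plus strand), the strongest table peak with its summit in a window that holds the strict motif.
Etv6: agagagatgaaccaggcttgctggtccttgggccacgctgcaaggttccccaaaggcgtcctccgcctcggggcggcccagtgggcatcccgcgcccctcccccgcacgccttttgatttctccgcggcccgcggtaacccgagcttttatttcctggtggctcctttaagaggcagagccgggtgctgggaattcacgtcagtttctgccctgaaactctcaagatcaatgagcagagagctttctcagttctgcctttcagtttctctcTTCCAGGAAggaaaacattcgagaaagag
At Mapk14 the pileup, which is the height of the fragment stack at the summit, was 35 in library 1 and 25 in library 2, and the fold enrichment over local background was 5.36 and 6.11. At Ankrd13b the pileup was 32 and 21, and at Ddx56 it was 46 and 30. The summits of the first 2 lay next to the motif: at Mapk14 the summit was at -240 bases from the start (negative values are upstream, here and below) and the motif began at -232, and at Ankrd13b they were at -132 and -128. At Ddx56 the motif began at -77 and the summit lay at -120. The windows without the motif had a pileup of 35 and 26 at 4930506C21Rik and of 41 and 28 at Sec23ip. They held 35 and 18 CpG in 300 bases. Unlisted peaks in both kinds of window were chosen for a high lower fold, so their heights were not compared. At Etv6 the pileup was 298 and 205 and the fold enrichment 46.3 and 47.2.

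Unlisted peaks were narrower and lower than table peaks, and wider and higher than library 1-only peaks. These values chose the members, since the table was built from the strength of the peaks, so they are given as a description with no test. The median width in library 1 was 310 bp for unlisted peaks (quartiles 240 and 421), 502 bp for table peaks and 225 bp for library 1-only peaks. The widths of unlisted peaks ran from 163 to 1655 bp, and their partners in library 2 had a median of 217 bp. The median pileup was 30 fragments in library 1 (quartiles 25 and 36) and 16 in library 2 (14 and 18), against 68 and 33 for table peaks and 22 for library 1-only peaks. Their median fold enrichment was 4.72 in library 1 and 3.84 in library 2, against 10.4 and 7.56 for table peaks and 3.67 for library 1-only peaks.

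**Figure D1:**
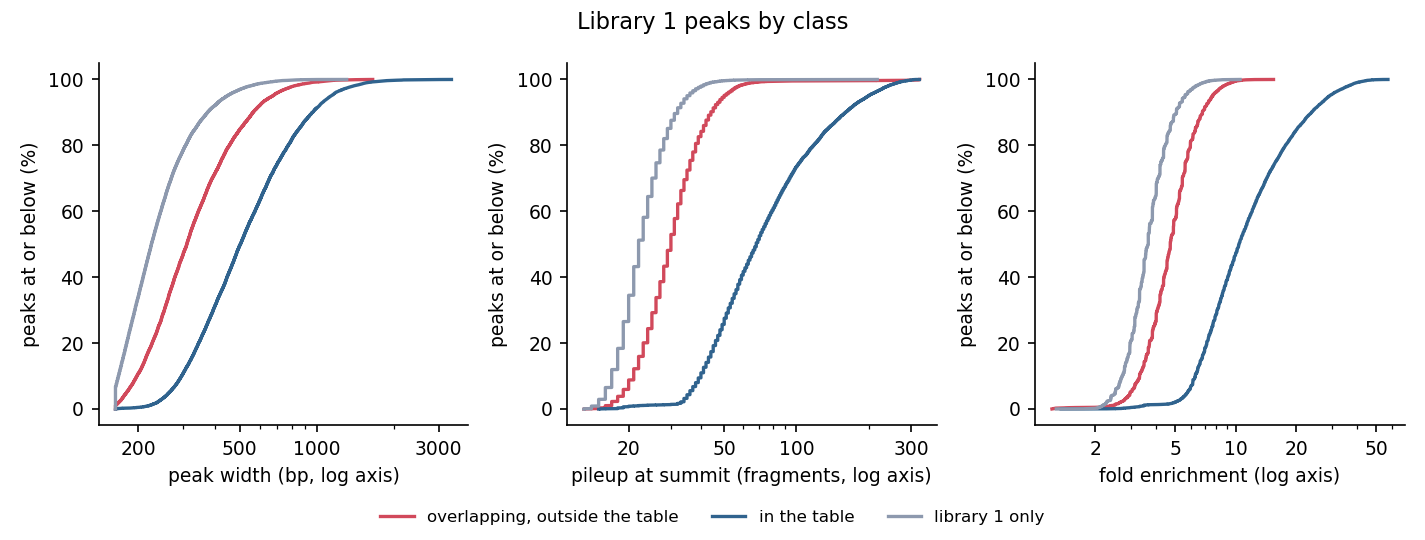
Share of library 1 peaks at or below each width (bp), pileup (fragments) and fold enrichment, on log axes, for unlisted peaks (red), table peaks (blue) and library 1-only peaks (grey). The curve of unlisted peaks lies between the others, with medians of 310 bp, 30 fragments and 4.72-fold, and a small group of unlisted peaks reaches 326 fragments.

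At unlisted peaks the narrower peak of a pair lay mostly inside the wider one, but the summits were less close than at table peaks. Of the 10651 unlisted peaks, 10431 had 1 partner in library 2 and 220 had 2. The partners numbered 10838, and none of the strongest partners touched a table peak. The median overlap was 197 bp, and in the median pair the narrower peak lay inside the wider one (100% shared; lower quartile 92.2%). The summits of a pair lay a median of 38 bp apart (quartiles 17 and 74), against 20 bp (9 and 39) for table peaks. The smallest overlap was 3 bp, inside Foxn2 at chromosome 17, 88473882 to 88474051, where the pileup was 16 and 13 fragments.

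The fold enrichments of the libraries ran together less closely over unlisted than over table pairs. Spearman's rho across pairs was 0.27 for the 10651 unlisted pairs and 0.90 for the 12785 table pairs, as a description over peaks that share a library and were split by strength, which narrows the range. The pileup was higher in library 1 in 99.1% of unlisted pairs, with a median ratio of 1.84 (quartiles 1.50 and 2.29). For table pairs the median ratio was 2.00. The lowest local background that the peak caller used was 4.72 fragments in library 1 and 2.91 in library 2, a ratio of 1.62, and the lists hold no read totals.

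With the -log10 p of each pair averaged, the median was 10.3 for unlisted and 34.8 for table peaks. Between 14 and 16, 861 pairs were unlisted and 626 were in the table. In that band the unlisted pairs had a median -log10 p of 22.03 in library 1 and 7.86 in library 2, and the table pairs had 19.7 and 10.3, the unlisted pairs being higher in library 1 and lower in library 2. Between 12 and 14 the library 1 medians were 17.54 and 17.55, and the library 2 medians 7.91 and 9.48. Between 10 and 12, with 15 table pairs, they were 14.2 and 14.4 in library 1 and 7.48 and 9.47 in library 2. Below 7.5 the unlisted pairs were higher in both, at 7.37 against 6.37 and 5.35 against 4.28. Within a band of mean strength a higher value in 1 library goes with a lower one in the other by construction, and these values are of the kind that ranked the pairs. Above 20, the unlisted pairs thinned out to 302 beside 1670 table pairs between 20 and 25, and to 18 beside 1761 between 30 and 40. Just outside the table, the 5 unlisted pairs with the highest mean -log10 p had 35.2 to 64.9. All but 1 of these 5 had a pileup of 73 to 87 in library 1 and of 19 to 30 in library 2. Just inside it, 147 table pairs lay below 7.5, and the 5 lowest had 3.53 to 4.02. The lowest lay inside Smo, on a local background of over 20 fragments, with 153 and 101 fragments at 1.35-fold and 1.38-fold. The next lay inside Gli2, with 16 and 11 fragments (2.58-fold and 2.50-fold).

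**Figure D2:**
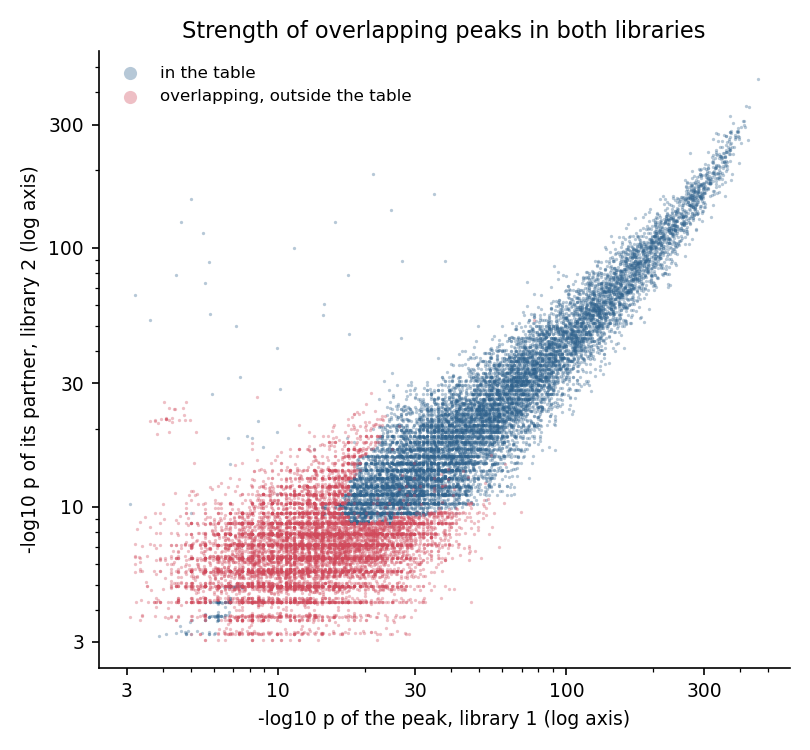
The -log10 p of each overlapping peak in library 1 (x axis) and of its partner in library 2 (y axis), on log axes, for 12785 table pairs (blue) and 10651 unlisted pairs (red). The classes meet along a bent edge near a -log10 p of 10 in library 2, a separate group of table pairs lies at the weak end, and 1 unlisted pair stands inside the blue cloud at 77.0 and 52.7.

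One unlisted peak was strong in both libraries. It covered chromosome 18, 84218432 to 84218968, inside Zfp407, a zinc finger gene, with a pileup of 87 fragments in library 1 and 57 in library 2 and a fold enrichment of 15.4 and 14.8. Its summits lay 3 bp apart, and its mean -log10 p of 64.9 was above the median of table peaks. It was the only unlisted pair with a mean above 40, where 5568 table pairs lay. It overlapped no region of the table as analysed here, and the nearest one was 131 kb away. Whether the table analysed here holds every region was not tested, so nothing is read from its place outside it. The next unlisted pair by mean -log10 p, at chromosome 14, 72786881 to 72787286, was strong in library 1 only, with 81 against 22 fragments and 14.3-fold against 4.30-fold.

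The tallest unlisted peaks were not the most enriched. The 58 unlisted peaks on a local background of over 20 fragments in library 1 (0.545%) had a median pileup of 263.5 fragments in library 1 and 189.5 in library 2, but a median fold enrichment of 1.32 and 1.84. The 40 unlisted peaks with a pileup of at least 200 were all in this group, and without the group the highest unlisted pileup was 88. Of table peaks, 7 (0.0548%) stood on such a background, and of library 1-only peaks 29 (0.161%). The highest pileup in the list of library 1 was 326 fragments, and the 11 peaks at that height were all unlisted, with 1.22-fold to 1.27-fold enrichment. Of these 11, 7 also had the highest pileup in the list of library 2, 302 fragments. Several peaks thus shared exactly the highest value of each list. Whether the pileup was capped there, which would hold down their fold as well, was not tested. The group lay at 26 places, of which 17 held 1 peak and 9 held 2 or more. Those with the most were 13 peaks at chromosome 9, 3000285 to 3035206, 9 at chromosome 6, 47654963 to 47778293, and 4 at chromosome 17, 39843091 to 39848012. Places with 3 lay at chromosome 2, 98662580 to 98667273, chromosome 14, 19415768 to 19419432, and chromosome 17, 13551249 to 13552984. Leaving out the whole group left the median width, pileup and fold enrichment at 310 bp, 30 fragments and 4.72.

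**Figure D3:**
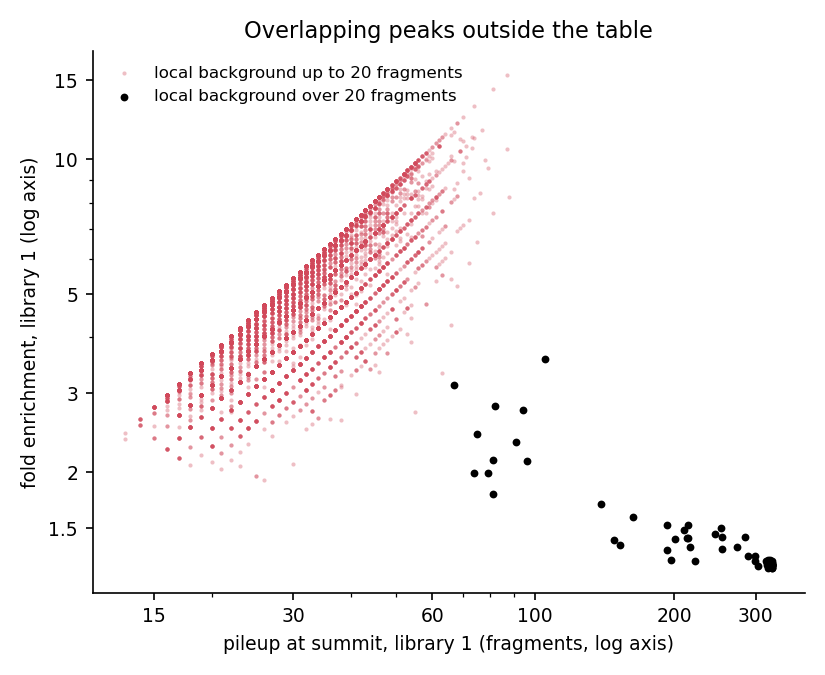
Pileup at the summit (fragments, x axis) against fold enrichment (y axis) of the unlisted peaks in library 1, on log axes. Fold is computed from pileup, so peaks on a similar background rise in both measures by construction. Peaks on a local background up to 20 fragments (red) end at 88 fragments. The 58 peaks on a higher background (black) reach 326 fragments at about 1.2-fold.

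The share of unlisted peaks near transcription starts was somewhat below that of library 1-only peaks, and how it compared with table peaks depended on the list of transcripts. With the Ensembl transcripts in the authors' table, 1700 unlisted peaks had their midpoint at most 1 kb from a start (15.96%, with a 95% interval after Wilson of 15.3 to 16.7%), against 23.8% (23.1 to 24.6%) of table peaks and 16.9% of library 1-only peaks. The share of unlisted peaks was below that of table peaks on each of the 19 chromosomes, and below that of library 1-only peaks on 13 of them. That list, however, holds transcripts given for table regions. Unlisted peaks with a table region within 25 kb lay near a listed start in 26.5% (25.2 to 27.8%), and those with none in 7.85% (7.19 to 8.55%). With RefSeq starts, which do not depend on the table, these shares were 19.9% (18.8 to 21.1%) and 21.7% (20.7 to 22.8%).

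Over all unlisted peaks on the 18 chromosomes that the RefSeq windows cover, 2148 of 10254 (20.9%, 20.2 to 21.7%) lay within 1 kb of a RefSeq start, against 18.97% (18.3 to 19.7%) of table peaks and 21.998% (21.4 to 22.6%) of library 1-only peaks. The order of unlisted and table peaks was the reverse of that in the authors' list. Against table peaks, the unlisted share was the higher one on 14 chromosomes and the lower one on 4, and against library 1-only peaks it was the lower one on 12 and the higher one on 6. With either end of every protein-coding gene in the RefSeq gene table, the shares were 19.9% (19.2 to 20.7%), 17.4% (16.8 to 18.1%) and 21.7% (21.1 to 22.3%). Intervals cover counting error over peaks only, peaks are not replicates, and the differences were not tested. Within 5 kb of a RefSeq start lay 32.5% of unlisted peaks and within 25 kb 58.9%. The midpoints of 55.6% (54.6 to 56.5%) fell inside a protein-coding gene, against 55.1% of table peaks.

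**Figure D4:**
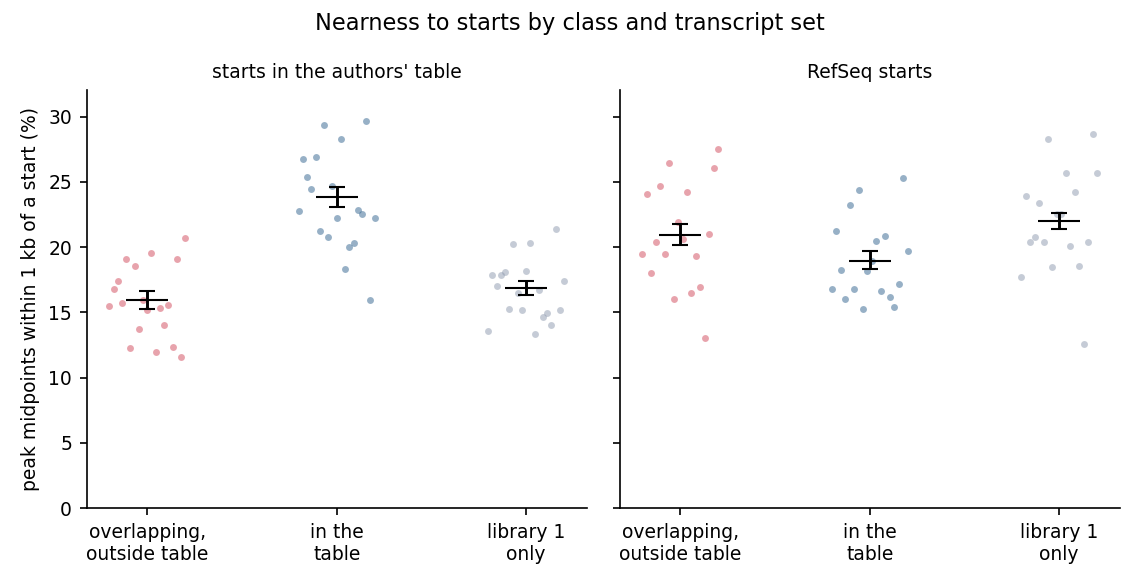
Share of peak midpoints within 1 kb of a transcription start, by class, with starts from the authors' table (left) and from RefSeq (right). Small points are single chromosomes (19 left, 18 right), and black bars are the share over all of them with its 95% Wilson interval: unlisted peaks are at 15.96% and table peaks at 23.8% on the left, and at 20.9% and 18.97% on the right.

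At starts, unlisted peaks were wider but no taller than elsewhere. The 2148 within 1 kb of a RefSeq start had a median width of 356 bp, and 24.1% of them were wider than 500 bp. Those 1 to 5 kb, 5 to 25 kb and over 25 kb away had a median width of 298, 297 and 301 bp, with 12.3 to 14.5% wider than 500 bp. The median pileup was 29 fragments within 1 kb and 30 over 25 kb away, and the median fold enrichment was 4.62 and 4.77. The median local background was 5.19 fragments within 1 kb and 4.90 over 25 kb away. Summits of the libraries were farther apart at starts, by a median of 48 bp against 36 bp over 25 kb away. Table peaks were wider at starts too (573 against 484 bp), with summits a median of 20 and 21 bp apart. Near starts, 1094 unlisted peaks were centred before the start, 1051 behind it and 3 on it, with a median offset of -5 bp, and 65.4% lay within 250 bp.

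Some unlisted peaks flanked table regions. Of all unlisted peaks, 476 (4.47%) had the midpoint of a table region within 1 kb and 43.5% within 25 kb, against 5.34% and 42.2% of library 1-only peaks. Most of the 5 widest lay near one. An unlisted peak of 1584 bp at chromosome 11, 117964401 to 117965984, lay 3.99 kb downstream of a start of Socs3, whose product shuts down JAK kinases in a feedback loop, with its midpoint 1.63 kb from that of a table region. It had 37 and 16 fragments, or 4.15-fold and 3.54-fold enrichment. One of 1602 bp lay 10.45 kb upstream of the start of Tmpo, a gene of the nuclear lamina (52 and 24 fragments). One of 1511 bp lay inside Fyn, which encodes a SRC-family kinase that acts in myelination (32 and 25 fragments). It was 9.765 kb upstream of the nearest listed start of that gene. The widest of all, 1655 bp inside Stx8, had summits 1290 bp apart in the libraries, so its partner covered another part of it. A peak of 1533 bp lay inside Kmt2e, whose product binds methylated histone H3, and had no table region within 265 kb.

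The share of promoter windows with a STAT motif was close to that of all windows when an unlisted peak overlapped the window. Of 31365 RefSeq windows on these chromosomes, 1923 were overlapped by an unlisted peak. TTCNNNGAA, here the loose motif, was in 151 of the 1923 (7.85%, 95% Wilson interval 6.73 to 9.14%), against 8.34% (8.04 to 8.65%) of all windows, 15.0% (13.6 to 16.5%) of windows under table peaks and 6.06% (5.26 to 6.97%) under library 1-only peaks. The strict motif TTCCNGGAA, which every loose count includes, was in 18 windows under unlisted peaks (0.936%, 0.593 to 1.47%), against 1.18% (1.07 to 1.31%) of all windows and 5.69% (4.84 to 6.69%) under table peaks. Both motifs read the same on both strands. The windows under unlisted peaks were rich in CpG, with a median of 22 in 300 bases against 7 over all windows, 21 under table peaks and 23 under library 1-only peaks. Among windows with at least 10 CpG, the loose motif was in 6.61% (5.52 to 7.90%) under unlisted peaks, 5.93% (5.55 to 6.34%) of all and 13.8% (12.4 to 15.4%) under table peaks. In such windows that held the summit of an unlisted peak it was in 7.95% (6.45 to 9.77%). This interval was above that of all windows with at least 10 CpG. In those with the summit of a table peak it was in 19.03% (16.8 to 21.5%). With any number of CpG, windows with an unlisted summit had it in 9.55% (7.98 to 11.4%). That interval overlapped the one of all windows. These subsets by summit and CpG were chosen after seeing the data. The strict motif was in 0.970% (0.528 to 1.78%) of the windows with an unlisted summit and at least 10 CpG, against 1.11% (0.949 to 1.30%) of all with as many CpG. A motif is a match of letters and not a measured site, and these shares were not tested against each other.

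Table peaks varied in this respect, and the weakest of them were close to the unlisted peaks. With table peaks split into 4 equal groups by the lower fold enrichment of the pair, the strict motif was in 0.503% (0.171 to 1.47%), 1.68%, 4.405% and 14.2% (11.9 to 17.0%) of the windows they overlapped, from the weakest to the strongest group. The loose motif was in 9.73%, 9.70%, 14.7% and 23.6%. With unlisted peaks split into 2 groups at the median of the lower fold, a weaker and a stronger one, the strict motif was in 0.750% (0.380 to 1.47%) and 1.16% (0.634 to 2.13%) of windows.

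**Figure D5:**
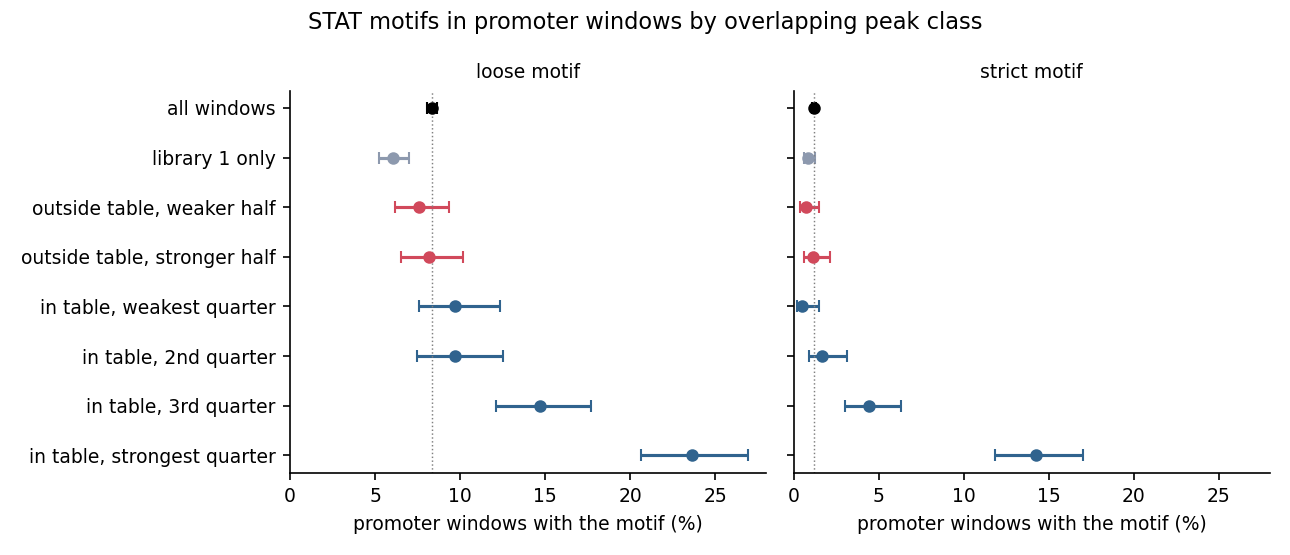
Share of promoter windows with TTCNNNGAA (left) and TTCCNGGAA (right), with 95% Wilson intervals, for all windows (black, dotted line) and for windows overlapped by library 1-only (grey), unlisted (red) and table peaks (blue). Both groups of unlisted peaks lie at the share of all windows, 0.750% and 1.16% against 1.18% for the strict motif, while table peaks go from 0.503% in the weakest of 4 groups to 14.2% in the strongest.

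Where an unlisted promoter peak had the strict motif, the motif was close to the summit. Of 14 unlisted peaks with their summit in a window that holds it, 12 (85.7%, 60.1 to 96.0%) had the summit of library 1 within 50 bp of the motif's centre, at a median of 19.5 bp. For table peaks these values were 92 of 101 (91.1%, 83.9 to 95.2%) and 17 bp. Library 1-only peaks showed it too, with 14 of 19 (73.7%, 51.2 to 88.2%) and 37 bp. With the loose motif it was 59 of 100 unlisted peaks (59%, 49.2 to 68.1%), at a median of 37.5 bp, and 175 of 243 table peaks (72.0%, 66.1 to 77.3%). Of library 1-only peaks it was 60 of 124 (48.4%, 39.8 to 57.1%). For CCAAT, a common promoter element counted on both strands and given as a reference, 135 of 355 unlisted peaks (38.0%, 33.1 to 43.2%) lay that close, at a median of 73 bp. The intervals for the strict motif, on 14 peaks, and for CCAAT did not overlap, and the difference was not tested.

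Other promoter elements were similarly frequent under unlisted and table peaks. The GC box GGGCGG, on either strand, was in 62.8% and 62.0% of windows, against 36.0% of all windows. Among windows with at least 10 CpG it was in 69.1% (66.9 to 71.3%) under unlisted peaks, 72.4% under table peaks and 69.8% of all. CCGGAAG, a core of ETS factor sites, on either strand, was in 23.3% (21.5 to 25.3%) and 22.4%, against 2823 of the 31365 windows in all. Among windows with at least 10 CpG it was in 25.6% (23.5 to 27.7%) under unlisted peaks and 26.3% under table peaks. Library 1-only peaks were similar, at 24.0% (22.4 to 25.6%), against 17.4% (16.8 to 18.1%) of all such windows. The AP-1 site TGANTCA was in 4.68% and 5.16%, against 7.85% of all windows. Among windows with at least 10 CpG it was in 3.75% under unlisted peaks, 3.897% under table peaks and 3.83% of all.

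Of the 2699 unlisted peaks within 1 kb of a start in either list, the 25 with the highest lower fold enrichment had a pileup of 33 to 55 fragments in library 1 and 22 to 29 in library 2, and at least 5.81-fold enrichment in both. In 19 of them the fold was the higher one in library 2, whereas over all unlisted pairs it was higher in library 1 in 72.8%. Choosing by the lower fold of the pair favours pairs that are high in library 2, so the 19 say nothing of promoters. Of the 25, 12 had no table region within 25 kb. Among genes of transcription and chromatin, Sin3a, the scaffold of a histone deacetylase corepressor, had 40 and 29 fragments (6.11-fold and 7.68-fold) at -139 bp from its start, with the nearest table region 195 kb away. Polr2a, the largest subunit of RNA polymerase II, had 33 and 22 fragments at -72 bp. Nab2, a corepressor of EGR factors, had 34 and 25 fragments (6.12-fold and 6.11-fold) 494 bp downstream of a start, and a table region lay 1.15 kb away.

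The POU-domain factor gene Pou3f3 had 33 and 28 fragments 60 bp downstream of its start (5.95-fold and 7.42-fold), with a table region 0.799 kb away, and the noncoding Pantr2 had 36 and 26 at 205 bp. Genes of RNA handling were Ssb, which encodes the La protein (55 and 22 fragments, 9.67-fold and 5.82-fold), the poly(A) polymerase gene Papola (35 and 26), the messenger RNA decay factor gene Zfp36l1 (46 and 22, 8.22-fold and 5.89-fold, over 1284 bp) and the ribosome recycling factor gene Abce1 (33 and 22). Zfp36l1 had a table region 1.03 kb away and Ssb none within 116 kb. Genes of signalling and traffic were the ERK pathway inhibitor gene Spred3 (33 and 27), the late endosome GTPase gene Rab7 (38 and 27), Sec23ip and Tmem173, which encodes the innate immune adaptor STING (38 and 24). The others reported here were Gm34099, which had the highest lower fold (6.65-fold and 7.42-fold), 4930506C21Rik, Cep41, Rai1, Asic2, Gm33716, Ecrg4, Cnpy3, Gm24982 and Gucd1.

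Far from starts, though in part inside genes, the strongest unlisted peaks after the one in Zfp407 reached similar values. The one at chromosome 11, 32946377 to 32946980, had 39 and 31 fragments (6.998-fold and 8.19-fold), 20.5 kb upstream of Gm12111. The one at chromosome 3, 115969178 to 115969530, inside the zinc transporter gene Slc30a7, had 41 and 26 fragments. A peak at chromosome 16, 67871652 to 67871954, lay 251 kb upstream of the nearest start, that of the adhesion gene Cadm2, and one at chromosome 17, 8508306 to 8508777, lay 16.8 kb upstream of the phosphodiesterase gene Pde10a. Both had 38 and 28 fragments.

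Genes were then sorted by whether an unlisted peak, a table region or both lay within 5 kb of a RefSeq start. Of 16457 protein-coding genes with such a start, 2115 (12.9%) had an unlisted peak and no table region, 601 had both and 2231 had a table region only. In all, 2716 (16.5%) had an unlisted peak and 2832 (17.2%) a table region. The gene lists below were read against these shares, with no test, and their counts are small. The count of genes with an unlisted peak and no region falls where a list has many regions.

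Of the genes that carry signals from gp130 and other cytokine receptors to STATs, 6 of 33 (18.2%) had an unlisted peak and no table region, against 12.9% of all genes. Stat4 had 42 and 17 fragments (7.52-fold and 4.61-fold) 969 bp downstream of its start, the cytokine gene Il6 had 39 and 15 fragments (6.998-fold and 3.76-fold) 133 bp downstream, Stat5a had 29 and 17 fragments at -277 bp, and Pias3, an inhibitor of STAT3, had 18 and 14 fragments 575 bp downstream. The other pair were Lifr, the receptor that gp130 joins for CNTF, and Ptpn6. A table region lay within 5 kb of 13 of the 33 (39.4%), against 17.2% of all genes. With or without a region, 10 of the 33 (30.3%) had an unlisted peak, against 16.5% of all genes.

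Immediate early genes had 6 of 27 (22.2%): the AP-1 and ATF genes Jund (22 and 16 fragments) and Atf3 (23 and 15 fragments, at -293 bp), the ERK phosphatase genes Dusp6 (35 and 19 fragments, 4.78-fold and 4.17-fold) and Dusp5, and the nuclear receptor genes Nr4a3 (39 and 18 fragments, at -442 bp) and Nr4a1. An unlisted peak lay near 13 of the 27 in all (48.1%), against 16.5% of all genes, and 7 of these had a table region as well. Cell cycle genes had 8 of 31 (25.8%), with Rbl1, a relative of the retinoblastoma protein (42 and 17 fragments, at -93 bp), the phosphatase gene Cdc25a (24 and 14), the kinase gene Cdk6 (30 and 14) and the replication helicase gene Mcm3 (22 and 15) first by lower fold, and Pcna, Cdkn1b, Cdkn2c and Cdk2 after them. Cytosolic ribosomal protein genes had 13 of 50 (26%), led by Rpl28 (37 and 25 fragments), Rps12 (30 and 19), Rps15a (38 and 24, at -4 bp) and Rps18 (23 and 15, 4.08 kb downstream).

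Chromatin regulators had 7 of 32 (21.9%), led by Chd8 (54 and 17 fragments, 9.62-fold and 4.23-fold, at -206 bp), the Polycomb gene Eed (41 and 19), Chd4 (33 and 15) and Hdac5 (28 and 15). Respiratory chain genes had 2 of 28 (7.14%), Sdhb and Ndufv1. A table region lay near 11 of the 28 (39.3%), against 17.2% of all genes.

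Lineage factors had 3 of 28 (10.7%), which were Yy1 (31 and 17 fragments), Tcf7l2, a Wnt pathway factor needed for oligodendrocyte maturation (31 and 14 fragments, 252 bp downstream), and Sox8 (31 and 14). A table region lay near 18 of these 28 (64.3%), against 17.2% of all genes. With or without a region, 13 (46.4%) had an unlisted peak, against 16.5% of all genes, and 10 of these 13 had both. Progenitor genes had 5 of 19 (26.3%), with the proteoglycan gene Bcan first (32 and 17 fragments, at -696 bp), then Matn4, Lhfpl3 and Sapcd2, and Dscam as the fifth. Myelin genes had 1 of 23 (4.35%), the receptor gene Gpr37 (33 and 20 fragments). With or without a region, 4 of these 23 (17.4%) had an unlisted peak, close to the 16.5% of all genes. A region lay near 7 of them (30.4%), against 17.2% of all genes. Notch, BMP and Wnt genes had 4 of 27 (14.8%). These were the BMP receptor gene Acvr1 (30 and 19) and Ctnnb1, which encodes beta-catenin (33 and 17). The others were the Notch ligand gene Jag1 (42 and 21, at -728 bp) and Smad5 (43 and 17). With or without a region, 11 of these 27 (40.7%) had an unlisted peak, and 17 (63.0%) had a region.

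For markers of other cells that a cortical culture could hold, the count of genes with an unlisted peak and no region, which falls where a list has many regions, is given first. Astrocyte markers had 2 of 21 (9.52%), Fgfr3 (33 and 15 fragments) and Glul (27 and 13). With or without a region, 5 of these 21 (23.8%) had an unlisted peak, against 16.5% of all genes, and 11 (52.4%) had a region, against 17.2%. Microglia markers had 2 of 18 (11.1%), Sall1 and Olfml3, neuron markers 2 of 17 (11.8%), Slc17a7 and Map2, and endothelial and fibroblast markers 2 of 16 (12.5%), Kdr (41 and 17 fragments, at -245 bp) and Acta2. A peak is no measure of expression, so these counts do not say which cells were present.

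The share of unlisted peaks varied little between chromosomes. The share among library 1 peaks with a partner had a median of 45.5% over the 19 chromosomes, from 41.9% on chromosome 4 to 47.6% on chromosome 9, the chromosome that also held 13 of the 58 peaks on high background at one place.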

How the data were processed

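CASAVA 1.8, Bowtie2, MACS2 and the build GRCm38.p3 are named per the submitters' processing notes; their options are not given in the sources used here. Each ChIP library has its own deposited peak list, and 1 deposited table gives the reproducible regions. Of each peak, the lists give the pileup signal, in fragments at the summit, and the fold enrichment, a ratio over local background, per the file headers. The -log10 p column has a damaged header in the deposited lists and was recognised by recomputing it from pileup and fold with a Poisson tail, which matched within 0.1% for 99.6% of library 1 and 99.985% of library 2 peaks. In the deposited table, the adjusted p-value column holds the IDR, and a column headed fold enrichment holds a score near the mean -log10 p that was not used.

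Local background was computed as pileup plus 1, divided by fold, minus 1. Of several partners, that with the highest fold was used. Distances are those of midpoints, and transcript starts came from the authors' table or from RefSeq windows (GRCm38.p6; 300 bases, none on chromosome 18 and for 16457 of 20665 protein-coding genes). Each of 14 gene lists was counted over its genes with such a start; the others were not counted. Intervals and counts were computed in Python 3.11.15 with scipy 1.17.1, tables in pandas 2.3.3 and numpy 2.4.6, and figures in matplotlib 3.10.9. The steps were tested on simulated peaks: 100% of 3000 peaks got their class back.

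No test was made: there is 1 group of 2 libraries, and strength chose the peaks. Read numbers per library are not given in the sources used here. Named were the 25 strongest peaks within 1 kb of a start, up to 4 genes per list, the 5 strongest far from starts, the 5 widest, and 5 on each side of the threshold; further list members were named after their values were seen, and 2 of the 25 are not reported here. The peaks and lists were chosen with earlier results of these data known. Alternatives were other overlap, threshold, IDR, distance, window and transcript choices.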

Additional observations from a re-analysis of the deposited data

How the results depend on the processing

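The number of unlisted peaks stayed within 1.5 times of 10651 under all alternatives but 1: a -log10 q of at least 10 in both libraries left 317 peaks, with a median of 5.598-fold enrichment, 8.52% of them within 1 kb of a start in the authors' table and 46 genes reached by an unlisted peak and no region. Counted from library 2, the same rule gave 10838 peaks with a median of 217 bp, 16 fragments and 3.84-fold enrichment. The share within 1 kb of a start, 15.96% as first computed, was 13.8% with an overlap of at least 50% of each peak, 14.9% with summits within 100 bp, 17.5% with only regions of an IDR of 0.01 or below, 14.4% without peaks within 1 kb of a region, 19.9% with gene ends and 20.9% with RefSeq starts, and it was 26.1% within 5 kb and 47.4% within 25 kb. The loose motif was in 9.55% of windows that held the summit and in 6.61% of those with at least 10 CpG. Of 51 alternatives, 34 stayed within the limit set for their result. For counts of peaks and genes the limit was 1.5 times, and for shares it was the Wilson interval. For medians it was the standard deviation of the medians of the 2 libraries, which is wide where the libraries differ. Alternatives on motifs, on local background, on RefSeq starts and on either end of every gene were chosen after seeing the data. Leaving out a library was not possible, since the rule needs both. No paired analysis was possible because both ChIP libraries belong to 1 group and no other group has a peak list here. The peak lists hold no read totals, and the part of depth in these values was not tested.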

Other observations

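Outside chromosomes 1 to 19 the same rule gave 225 further peaks, of which 183 lay on chromosome X, 10 on chromosome Y and 32 on scaffolds or the mitochondrial genome. Unlisted peaks had another unlisted peak within 5 kb in 14.2% of cases, table peaks another table peak in 18.8% and library 1-only peaks another of their kind in 20.98%. Within 1 kb the shares were 5.05%, 4.36% and 8.83%. The classes differ in size, which by itself changes the chance of such a neighbour. The partner in library 2 had a -log10 p over 20 at 59 unlisted peaks, of which 23 stood on a local background of over 20 fragments in library 1.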
